A study of Mus musculus with 6 samples.

Results

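The genes described here encode the proteins of the mitochondrial ribosome, measured by RNA sequencing in mouse medullary thymic epithelial cells (mTECs) with and without the histone demethylase Jmjd3. They were taken by symbol, as every gene whose name in the expression tables begins with Mrpl (large subunit) or Mrps (small subunit) followed by a number. The rule found 76 of the 20443 genes in the tables, 47 of the large subunit and 29 of the small subunit, on 17 chromosomes. All 76 are protein-coding genes in RefSeq, and all 76 reached the mean level required for testing (0.5 FPKM, averaged across the 6 mice), so no member is missing from the counts below. FPKM counts fragments per kilobase of a transcript relative to the mapped fragments of its library, a level that can be compared between genes per length.

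The control group was 3 mice with floxed Jmjd3 alleles and no Cre (Jmjd3fl/fl; Con_253, Con_261 and Con_264), and the deficient group was 3 mice with the same alleles and Foxn1-cre (Jmjd3fl/fl-Foxn1-cre; cKO_262, cKO_263 and cKO_265). All mice were C57BL/6 and 4 weeks old, and both groups carry the floxed alleles. Foxn1-cre acts in thymic epithelial cells from early in their development, so cortical and medullary epithelium are both targeted. Because the controls carry no Cre, loss of Jmjd3 and presence of the Cre construct cannot be told apart. mTECs were sorted by flow cytometry, and the cDNA was put through whole-transcriptome amplification, with 1 library per mouse. Jmjd3 removes methyl groups from lysine 27 of histone H3, a repressive mark, and its gene symbol is Kdm6b.

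The mitochondrial ribosome translates the few messenger RNAs of the mitochondrial genome, which encode core subunits of the respiratory chain and of ATP synthase. Its ribosomal RNAs come from the mitochondrial genome, whereas all of its proteins are encoded in the nucleus, made in the cytosol and imported. Some of these proteins have relatives in bacterial ribosomes and others are particular to mitochondria. mTECs transcribe and display many genes of peripheral organs, which is the activity that the series title asks about.

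Many mitochondrial ribosomal protein genes start close to another gene on the opposite strand. An opposite-strand start within 1000 bases was annotated for 32 of the 76 genes (42.1%), compared with 13.6% of the 14791 tested genes with an annotation (GENCODE M21, mouse build GRCm38, the assembly of mm10). Mrpl46 and Mrps11, a large-subunit and a small-subunit gene on chromosome 7, form such a pair with each other. Their RefSeq starts lie 42 bases apart, whereas the longest GENCODE models of the pair start farther out and overlap by 412 bases. The 29 bases next to the RefSeq start of Mrpl46 that no GENCODE exon covers are shown as the core of this shared start region. It lies at chr7:78783090-78783118 and is written on the minus strand, in the direction of Mrpl46. Like the sequences that follow, it is from RefSeq, assembly GRCm38.p6.

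Mrpl46: gcccctcgccggcccgcgttgcctcatgg

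A RefSeq promoter (250 bases before and 50 bases after the start) was matched to 67 of the 76 genes. For Mrpl33, Mrps24, Mrpl35 and Mrpl36 the matched start lay 17016, 7979, 3185 and 2496 bases from the outermost GENCODE start. Each of these genes carries at least 1 of the motifs counted below. Each was searched on both strands for 4 short motifs of factors known to act at nuclear genes for mitochondrial proteins or at housekeeping genes. The NRF1 motif GCATGCGC was found in 8 of the 67 promoters (11.9%) and in 4.76% of the 11566 promoters of tested genes. The ETS motif CCGGAAG, the core bound by GABPA, was found in 22 (32.8%) and in 15.3% of the promoters of tested genes. The YY1 motif AAGATGGC was found in 12 (17.9%) and in 4.03%. The CCAAT box was found in 27 (40.3%) and in 38.2%. Over all 16522 promoters matched to a symbol, expressed or not, the shares were 3.77%, 12.3%, 3.27% and 38.8% in the same order. A match is a description of the letters and does not show that a factor binds.

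The next stretches show how these motifs sit before the starts of Mrpl9, Mrpl22 and Mrpl43, with every motif letter in capitals. The Mrpl9 stretch (chr3:94443168-94443317, plus strand) carries the NRF1 motif on both strands in one overlapping palindrome. The Mrpl22 stretch (chr11:58171511-58171660, plus strand) carries an ETS motif and, after it, an NRF1 motif in reverse. The Mrpl43 stretch (chr19:45006443-45006557, minus strand) carries the ETS motif at a pair of places.

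Mrpl9: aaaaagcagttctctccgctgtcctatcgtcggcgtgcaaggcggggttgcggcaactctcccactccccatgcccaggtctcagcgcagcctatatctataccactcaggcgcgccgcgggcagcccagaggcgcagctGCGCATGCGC

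Mrpl22: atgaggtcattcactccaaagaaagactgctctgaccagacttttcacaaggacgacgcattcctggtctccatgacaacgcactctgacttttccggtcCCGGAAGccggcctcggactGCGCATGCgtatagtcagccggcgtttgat

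Mrpl43: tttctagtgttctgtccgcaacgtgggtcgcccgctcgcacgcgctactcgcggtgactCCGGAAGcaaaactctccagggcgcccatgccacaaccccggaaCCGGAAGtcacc

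Mrpl3, Mrpl55 and Mrps9 are shown because they were among the 6 members of their subunit with the smallest unadjusted p between the groups. Their stretches lie at chr9:105053089-105053238, chr11:59202386-59202485 and chr1:42851083-42851232, all on the plus strand. The capitals mark a CCAAT box, in reverse before Mrpl3 and as written before Mrps9. The Mrpl3 stretch ends 30 bases before the RefSeq start. The searched promoter of Mrpl3 also holds an ETS motif that begins 19 bases before the start, and further CCAAT boxes, outside the stretch. None of the 4 motifs is in the Mrpl55 stretch.

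Mrpl3: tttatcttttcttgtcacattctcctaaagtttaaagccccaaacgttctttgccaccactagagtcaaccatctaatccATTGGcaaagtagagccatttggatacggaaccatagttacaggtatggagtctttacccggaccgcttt

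Mrpl55: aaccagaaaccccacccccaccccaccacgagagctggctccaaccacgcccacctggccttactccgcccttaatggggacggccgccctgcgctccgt

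Mrps9: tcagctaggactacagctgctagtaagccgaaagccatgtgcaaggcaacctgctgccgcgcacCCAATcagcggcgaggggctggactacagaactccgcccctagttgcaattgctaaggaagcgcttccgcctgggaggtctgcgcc

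Some facts of the whole data set bear on every value below. The targeted gene Kdm6b measured 18.1, 17.1 and 9.998 FPKM in the controls, against 11.1, 11.7 and 8.67 FPKM in the deficient mice. The groups overlapped, and the difference of -0.45 ± 0.23 (SE) on the log2(FPKM + 1) scale had an adjusted p of 0.418 (limma, Benjamini-Hochberg over 15720 tested genes). Over all genes the FPKM summed to 461152 to 543156 per control and 582835 to 641060 per deficient library, 1.23 times higher on average, while the median gene was lower (3.21 to 3.37 against 3.57 to 3.69 FPKM). The 8 mTEC markers in the tables summed to 6249 to 7233 FPKM in the controls and 6218 to 7751 FPKM in the deficient libraries, and none of the 8 was at 0 in any library. Summed markers of thymocytes (10 genes, 41.4 to 70.8 against 29.7 to 38.5 FPKM), of myeloid and dendritic cells (8 genes, 355.5 to 402.6 against 289.3 to 314.7 FPKM) and of endothelium (5 genes, 6.51 to 6.59 against 4.43 to 4.99 FPKM) were lower in every deficient library than in every control. The myeloid sum is mostly Lyz2 (324.2 to 362.2 against 241.7 to 275.1 FPKM), and Aif1 of the same list was higher in every deficient library (3.85 to 4.73 against 10.1 to 16.1 FPKM, difference 1.46, adjusted p = 0.0555, limma). Summed markers of cortical epithelium (6 genes, 933.4 to 1134 against 1068 to 1511 FPKM), fibroblasts (6 genes, 31.2 to 38.3 against 27.2 to 34.7 FPKM) and B cells (4 genes, 38.3 to 50.7 against 40.0 to 55.9 FPKM) overlapped. Of the cortical markers 5 of 6 had higher means in the deficient group, and Tbata did not overlap (306.8 to 467.9 against 501.0 to 728.3 FPKM). None of the markers of these lists was at 0 in any library, and their part in the results below was not tested.

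Mitochondrial ribosomal protein genes were expressed well above the typical gene. Their median mean level was 27.9 FPKM, which lay at or above that of 81.6% of tested genes, and 70 of the 76 were above the median tested gene (6.74 FPKM). Levels within the family differed 209-fold, from Mrpl35 at 1.82 FPKM to Mrps21 at 380.0 FPKM, means over the 6 libraries. The 10 highest genes held 49.3% of the summed FPKM of the family.

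No member was called changed between the groups. At an adjusted p under 0.05, limma called 12 of the 15720 tested genes (0.0763%), and 0 of the 47 large-subunit and 0 of the 29 small-subunit genes. At an unadjusted p under 0.05, 15 large-subunit and 8 small-subunit genes were higher in the deficient libraries and 0 of either subunit were lower, against 6.81% of all tested genes higher and 7.82% lower. The small-subunit count was 5 without Con_261 and 4 without Con_264, where 4.14% and 4.66% of all tested genes were higher. It was 4 with quantile normalization (5.85% of all tested genes) and 14 with median centring (9.78%). With every library scaled to the same summed FPKM, 8 large-subunit and 2 small-subunit genes were higher and 1 of each was lower, against 1.74% of all tested genes higher. The lowest adjusted p was 0.118 in the large and 0.127 in the small subunit.

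Without passing that test, most members had higher values in the deficient group. Values were higher for 42 of 47 large-subunit genes and 25 of 29 small-subunit genes, against 45.3% of all tested genes. The 3 deficient libraries all lay above the 3 controls for 19 large-subunit genes (40.4%) and 9 small-subunit genes (31.0%), against 9.59% of all tested genes. The reverse, all 3 deficient libraries below all 3 controls, held for 0 large-subunit genes and for 1 small-subunit gene, Mrps2, against 11.9%. For Mrps2 this held only for the sum of its rows, not for either row alone. The median difference was 0.22 on the log2(FPKM + 1) scale for the large subunit and 0.32 for the small subunit, as deposited, against -0.04 for all tested genes, but scaling every library to the same summed FPKM turned the large-subunit median to -0.05 and brought the small-subunit median to 0.02. Under that scaling the median of all tested genes was -0.27, so the members stayed 0.22 (large) and 0.29 (small) above it, and the genes with non-overlapping higher values numbered 7 and 1, against 2.39% of all tested genes. In bulk samples such as these, a change in the kinds of cells in the sort and a change of RNA per cell cannot be told apart.

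**Figure D1:**
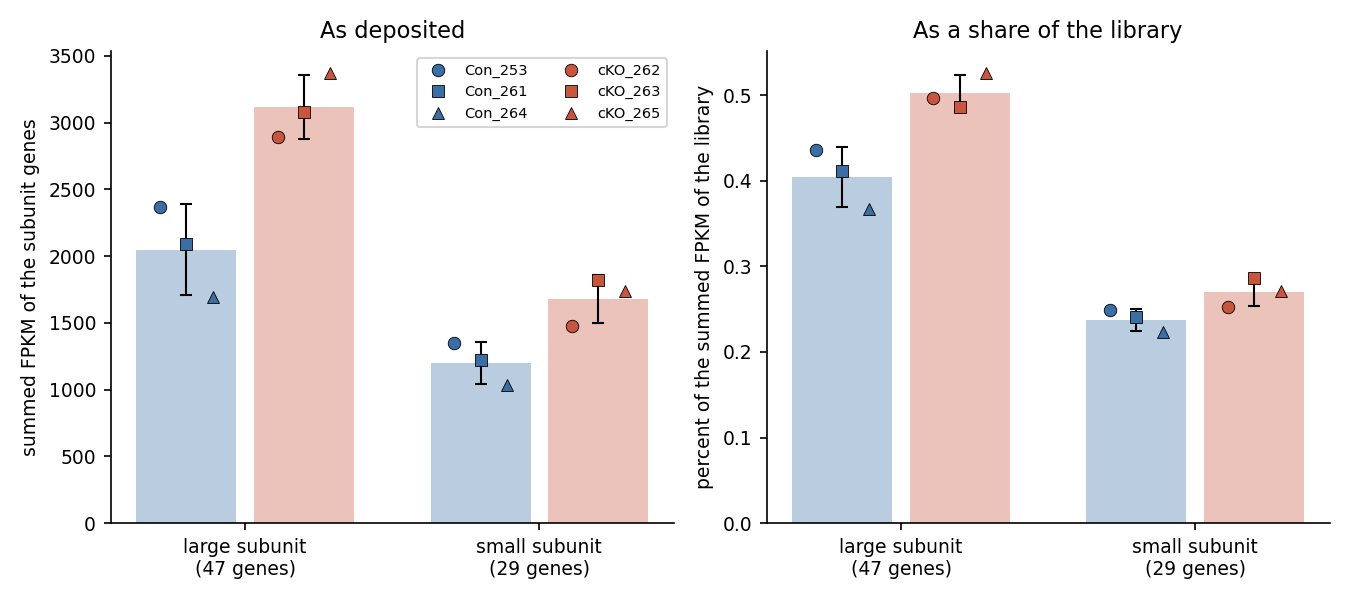
Summed FPKM of the large-subunit and small-subunit genes in each library (left) and the same sums as a percent of the summed FPKM of all genes in that library (right). Bars are group means, error bars are SD (n = 3 mice) and points are libraries. All 3 deficient libraries lie above all 3 controls for both subunits, and the right panel shows a smaller gap than the left.

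The summed levels of the subunits showed the same pattern by library. The large subunit summed to 2366, 2087 and 1690 FPKM in the controls and 2895, 3079 and 3369 FPKM in the deficient libraries (2048 ± 340 against 3114 ± 239, mean ± SD, n = 3 each, ratio 1.52). The small subunit summed to 1349, 1220 and 1032 FPKM in the controls and 1474, 1818 and 1740 FPKM in the deficient libraries (1200 ± 160 against 1677 ± 181, n = 3 each, ratio 1.40). The groups did not overlap for either subunit, Con_264 was the lowest library for both, and a 3 against 3 permutation test cannot give a 2-sided p below 0.1. As a percent of the summed FPKM of the library, the large subunit was at 0.405 ± 0.035% and 0.503 ± 0.021% (ratio 1.24), and the small subunit at 0.238 ± 0.013% and 0.270 ± 0.017% (ratio 1.14). These shares did not overlap either, although the lowest deficient value of the small subunit (0.253%) was close to the highest control value (0.248%). The ratio of large-subunit to small-subunit FPKM was 1.75, 1.71 and 1.64 for the controls, against 1.96, 1.69 and 1.94, and the groups overlapped.

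Libraries within a group also differed in the family as a whole. Con_264 held the lowest value of the 6 libraries for 39 of the 76 members, and cKO_265 held the highest value for 33. As the median over large-subunit genes of the log2 deviation from the control mean, the controls were at 0.11, 0.04 and -0.10 and the deficient libraries at 0.29, 0.24 and 0.36. For small-subunit genes these medians were 0.10, -0.01 and -0.14 in the controls and 0.23, 0.32 and 0.30 in the deficient libraries. Every deficient library was above every control in both sets, and the same medians over all tested genes stayed between -0.06 and 0.01. Without cKO_265 the median differences were 0.24 (large) and 0.28 (small), and without Con_264 they were 0.23 and 0.32. Without cKO_263 they were 0.28 and 0.25, so the large subunit then had the higher median.

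**Figure D2:**
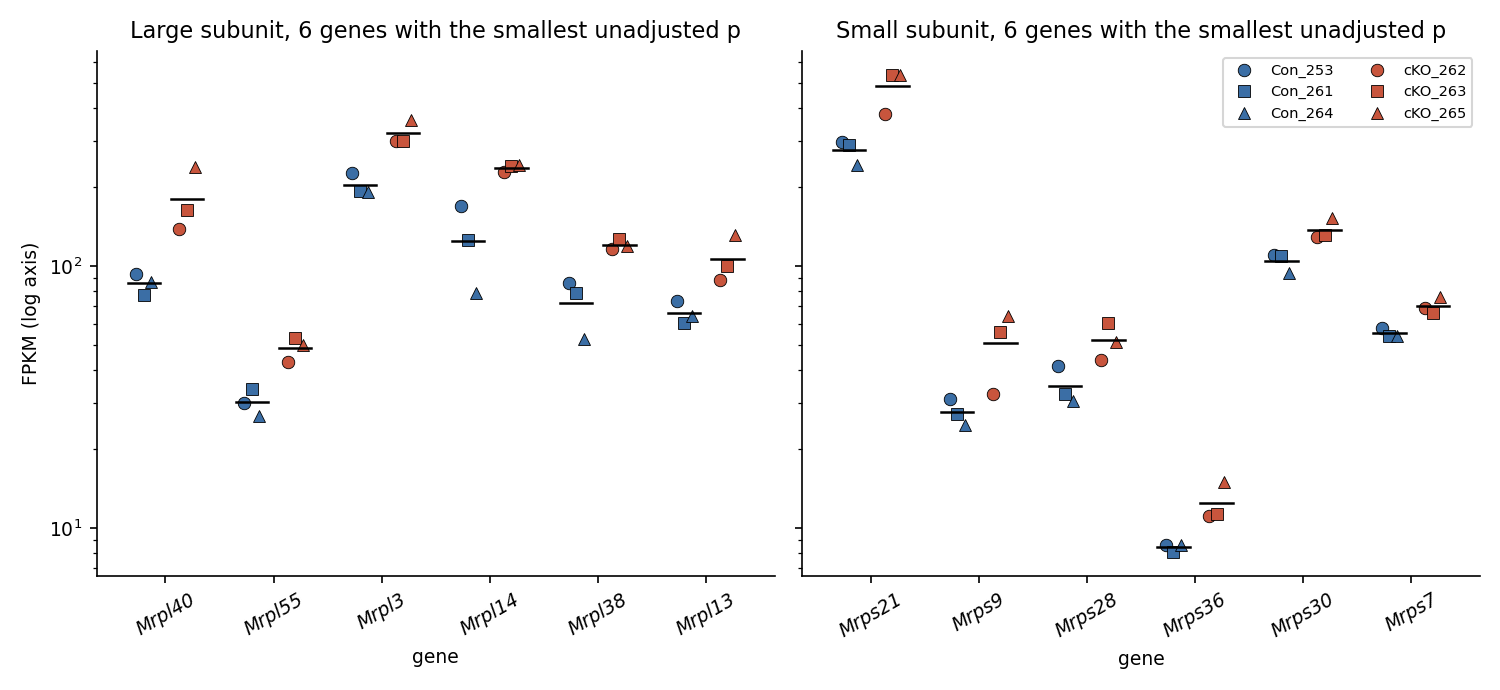
FPKM on a log axis in each library for the 6 large-subunit genes (left) and 6 small-subunit genes (right) with the smallest unadjusted p. Points are libraries (3 controls in blue, 3 deficient in red) and black bars are group means. In all 12 genes the lowest red point is above the highest blue point, by a narrow margin in Mrps9 and Mrps28.

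Values for single genes are given as FPKM in the order Con_253, Con_261, Con_264, then cKO_262, cKO_263, cKO_265. Differences (deficient less control) are in log2(FPKM + 1), with the SE and adjusted p from limma. The largest difference among the 12 genes in the plot of members by library was that of Mrpl40, at chr16:18872018-18876637. Mrpl40 encodes a mitochondria-specific protein of the central protuberance, the part of the large subunit that faces the head of the small subunit. Its level was 93.0, 77.2 and 86.8 FPKM, against 138.3, 163.5 and 238.7 FPKM. The lowest deficient library was well above the highest control, and cKO_265 was the highest (difference 1.03 ± 0.20, adjusted p = 0.118, limma). Mrpl38, another protein of the central protuberance, was at 85.9, 78.7 and 52.5 against 115.9, 126.7 and 118.8 FPKM. Its deficient libraries were close together and its controls were spread by the low Con_264 (difference 0.76 ± 0.19, adjusted p = 0.157, limma). Over the 7 central protuberance genes the median difference was 0.54, and 3 of the 7 (Mrpl27, Mrpl38 and Mrpl40) had non-overlapping higher values, against 9.59% of all tested genes and 15.8% to 42.6% of those at 20 FPKM and above by class of level.

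Mrpl3 (chr9:105053268-105077476) encodes a conserved protein of the large-subunit core and had the highest mean level of that subunit. Its level was 226.5, 193.6 and 190.8 FPKM, against 299.7, 300.6 and 360.9 FPKM. The groups were clearly apart, with a small spread in each (difference 0.65 ± 0.15, adjusted p = 0.125, limma). Mrpl55 (chr11:59202517-59206002), the mitochondrial relative of bacterial protein L31, was at 29.8, 33.8 and 26.8 against 43.1, 53.2 and 49.8 FPKM. Here too the groups did not overlap (difference 0.68 ± 0.15, adjusted p = 0.125, limma). Mrpl14, whose protein lies on the face of the large subunit that meets the small subunit, was at 169.1, 126.0 and 78.8 against 228.0, 240.4 and 241.8 FPKM. The deficient libraries were almost equal while the controls differed more than in any other member, with a log2 SD of 0.55 (difference 0.99 ± 0.25, adjusted p = 0.156, limma).

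Mrpl13, another conserved large-subunit protein, was at 73.7, 60.4 and 64.5 against 88.2, 99.9 and 131.7 FPKM. The groups did not overlap, with a difference of 0.66 ± 0.18 and an adjusted p of 0.166 (limma). Mrpl54, which encodes a protein near the base of the L7/L12 stalk where translation factors bind, was at 210.1, 161.8 and 109.3 against 264.02, 306.3 and 234.4 FPKM. Mrpl36, the relative of the small bacterial protein L36, was at 163.6, 163.5 and 99.7 against 198.8, 323.3 and 220.6 FPKM. Both were among the 3 most abundant large-subunit genes, and both had non-overlapping groups (differences 0.78 ± 0.23 and 0.80 ± 0.25). Of the 5 stalk genes, Mrpl53 and Mrpl54 had non-overlapping higher values, against 9.59% of all tested genes. Both average above 100 FPKM, a class of level in which 42.6% of tested genes had such values. Mrpl12, which encodes the stalk protein itself, was at 35.1, 32.4 and 18.2 against 32.7, 29.2 and 26.7 FPKM and overlapped.

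The least abundant large-subunit genes did not share this pattern. Mrpl35 was at 1.55, 1.79 and 2.16 against 1.77, 2.06 and 1.57 FPKM, and Mrpl17, whose protein lies near the exit of the polypeptide tunnel, was at 4.45, 4.16 and 5.32 against 3.99, 3.54 and 5.65 FPKM. Mrpl41, a mitochondria-specific protein, was at 5.01, 3.75 and 4.38 against 3.39, 5.48 and 5.91 FPKM. The groups overlapped in all 3 genes, and their differences (-0.02, -0.08 and 0.12) changed sign under at least 1 alternative processing. In the 8 genes around the exit tunnel the median difference was 0.29, and 3 of the 8 (Mrpl22, Mrpl24 and Mrpl47) had non-overlapping higher values, against the same 9.59%.

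In the small subunit the smallest p belonged to Mrps21 (chr3:95862652-95870619), the most abundant member of the family and the relative of bacterial protein S21. Its level was 296.5, 289.6 and 242.3 FPKM, against 378.5, 535.9 and 536.9 FPKM. The groups did not overlap, and cKO_262 was nearer to the controls than the other deficient libraries were (difference 0.79 ± 0.18, adjusted p = 0.127, limma). Mrps9 (chr1:42851233-42905683), a conserved protein of the subunit's head, was at 31.0, 27.2 and 24.7 against 32.5, 56.0 and 64.2 FPKM. cKO_262 was barely above the highest control, and the other 2 deficient libraries were far above it (difference 0.81 ± 0.24, adjusted p = 0.202, limma). Mrps28 was at 41.5, 32.4 and 30.6 against 43.8, 60.5 and 51.4 FPKM, with the same narrow margin in cKO_262.

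Mrps7, a conserved protein of the small-subunit head, was at 57.9, 54.1 and 53.9 against 68.8, 65.8 and 75.8 FPKM. Its groups were tight and did not overlap, although the difference was small (0.34 ± 0.13, adjusted p = 0.278, limma). Mrps34, which is needed for a stable small subunit, was the second most abundant small-subunit gene at 199.4, 152.2 and 94.4 against 159.0, 204.4 and 170.8 FPKM. Its groups overlapped widely, because Con_253 was above 2 of the deficient libraries and Con_264 was far below all of them.

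The 3 least abundant small-subunit genes were not higher as a group. Mrps2, as the sum of its rows, was at 6.76, 6.30 and 6.47 against 6.01, 5.59 and 4.76 FPKM (difference -0.22 ± 0.16, adjusted p = 0.556, limma). It was the only member whose summed values were all lower in the deficient libraries than in the controls. Neither row of Mrps2 alone separated the groups. Its higher row was at 4.81, 6.30 and 5.53 against 6.01, 4.19 and 4.76 FPKM, with a difference of -0.13. Mrps27, a pentatricopeptide repeat protein, was at 8.02, 4.97 and 6.74 against 7.74, 4.21 and 3.57 FPKM, and Mrps22, a mitochondria-specific protein, at 3.34, 3.68 and 4.55 against 4.26, 3.85 and 3.85 FPKM. The groups of Mrps27 and Mrps22 overlapped.

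Some symbols do not match the place of the protein. Mrps18a and Mrps30 encode proteins that sit in the large subunit, and Mrps36 encodes a component of the alpha-ketoglutarate dehydrogenase complex and is no longer counted as a ribosomal protein. Mrps30 was at 109.5, 109.0 and 93.8 against 128.7, 131.3 and 152.2 FPKM, and Mrps36 at 8.61, 8.09 and 8.58 against 11.1, 11.3 and 15.01 FPKM. Neither gene had overlapping groups (differences 0.40 ± 0.14 and 0.50 ± 0.17). Mrps18a and its paralogs Mrps18b and Mrps18c all overlapped between groups, with Mrps18a at 64.1, 52.1 and 44.6 against 70.5, 95.8 and 58.9 FPKM. Mrps18b was at 26.6, 22.8 and 19.0 against 30.4, 37.2 and 24.0 FPKM, and Mrps18c at 8.86, 8.70 and 9.22 against 10.2, 5.96 and 11.2 FPKM. With these genes placed by position, the median differences were 0.23 for 49 large-subunit genes and 0.28 for 26 small-subunit genes. The order of the medians was kept there with a smaller gap, but it reversed when cKO_263 was left out of the placement by symbol. The ratio of summed FPKM was the higher one in the large subunit (1.52 against 1.40 by symbol).

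Proteins with bacterial relatives and mitochondria-specific proteins were also set side by side. In the large subunit, 14 of 30 genes with a bacterial relative had non-overlapping higher values (median difference 0.26), and 5 of 17 mitochondria-specific genes did (median 0.18). In the small subunit the counts were 5 of 17 (median 0.29) and 2 of 9 (median 0.26), all to be read against 9.59% of all tested genes. The difference between these classes was not tested.

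A pair of members stood out by 1 or 2 libraries and were chosen after their values were seen. Mrpl52 was at 69.3, 66.7 and 42.2 against 65.2, 81.2 and 325.2 FPKM, and its difference of 1.04 ± 0.53, the highest of the family, rested on cKO_265. Mrpl48 was at 11.03, 15.4 and 10.9 against 18.7, 5.63 and 1.69 FPKM, and its difference of -0.91 ± 0.59 was the lowest of the family. In Mrpl48 the deficient libraries spanned both the highest and the lowest value of all 6, with a log2 SD of 1.44. Over the family the median SD within a group, on the log2 scale, was 0.17 (controls) and 0.23 (deficient), against 0.18 and 0.24 for all tested genes. Mrps10, which has 3 rows in the tables that were summed, moved in different directions by row. One row was at 11.3, 7.30 and 23.7 against 25.1, 49.2 and 40.2 FPKM and another at 42.9, 41.9 and 21.1 against 24.2, 36.8 and 26.7 FPKM, while the sum overlapped between groups (difference 0.41 ± 0.19). Which transcripts the rows stand for is not given in the sources used here.

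**Figure D3:**
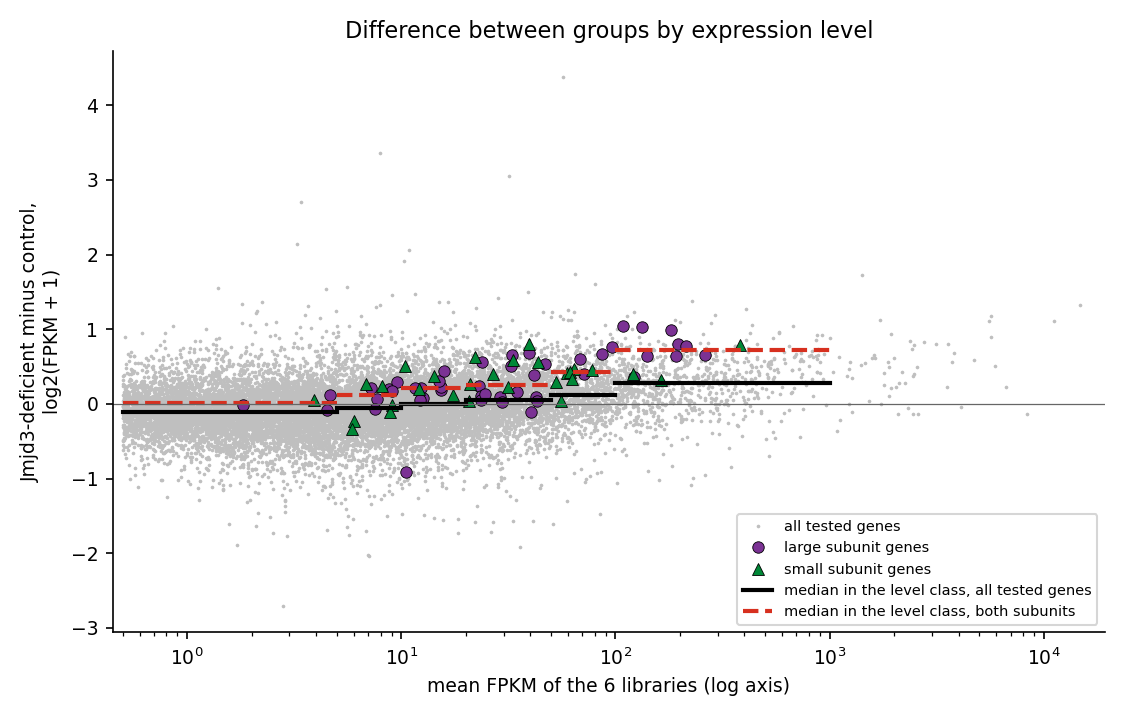
Difference between the groups on the log2(FPKM + 1) scale against the mean FPKM of the 6 libraries on a log axis, for all 15720 tested genes (grey), large-subunit genes (purple circles) and small-subunit genes (green triangles). Black lines are the medians of all tested genes and red dashed lines those of both subunits together in each class of level, and both climb from left to right, from -0.10 to 0.28 and from 0.02 to 0.71 (the class of 100 FPKM and above is drawn to 1000 FPKM).

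Differences between the groups moved with expression level in the whole data set, and the members are abundant genes. Among all tested genes the median difference went from -0.10 at 0.5 to 5 FPKM, through 0.05 at 20 to 50 FPKM, to 0.28 at 100 FPKM and above. The share of genes with non-overlapping higher values went from 3.26% through 15.8% to 42.6% in these classes. The 12 members at 100 FPKM and above had a median difference of 0.71, and 10 of them (83.3%) had non-overlapping higher values. At 50 to 100 FPKM the median was 0.43 for 11 members, of which 6 did not overlap, against 0.12 and 24.1% for 846 tested genes. At 20 to 50 FPKM it was 0.25 for 24 members, of which 8 did not overlap. Of the 4 members under 5 FPKM, 0 had non-overlapping higher values and the median was 0.02.

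Members also have short transcripts, with a median length of 1038 bases, against 2077 bases for the 14800 tested genes with an annotated length. The 36 members under 1000 bases had a median difference of 0.46, and 17 of them had non-overlapping higher values, while all 2772 tested genes of that length had a median of 0.06 and a share of 17.4%. In genes that were both under 1000 bases and at 20 FPKM or above, 16 of 27 members (59.3%) had non-overlapping higher values, with a median of 0.56, against 33.5% and 0.24 for 1062 tested genes. Over all lengths and levels the members' median was 0.28 and the tested genes' -0.04, so both the members and their background were higher in these classes. The part of level, of length and of the cDNA amplification in the differences was not tested.

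The genes that face a member across a shared start region were examined next. The 32 members with an opposite-strand start within 1000 bases had a median difference of 0.20 (11 with non-overlapping higher values), and the 44 without had 0.33 (17). Among the 29 tested partners that are not members themselves, 19 had higher values, 7 had non-overlapping higher values and 1 had non-overlapping lower values, with a median of 0.11. The shares over all tested genes are 45.3%, 9.59% and 11.9% for these 3 counts. Mrpl47 and its partner Ndufb5, which encodes a subunit of respiratory complex I, had differences of 0.44 and 0.65, and both had non-overlapping higher values. Mrpl14 and Tmem63b did as well (0.99 and 0.40). Mrpl40 had the difference of 1.03 given above, whereas its partner Hira, a histone chaperone whose start is 175 bases away, was at 11.4, 9.27 and 10.03 against 11.6, 14.4 and 8.40 FPKM and overlapped. Mrpl44 differed by -0.11 and overlapped, whereas its partner Wdfy1 was at 3.59, 4.44 and 4.21 against 8.32, 10.4 and 10.2 FPKM (difference 1.07 ± 0.17, adjusted p = 0.0834, limma). Rab6a, the partner of Mrpl48, was at 25.4, 32.2 and 36.4 against 18.9, 19.5 and 19.0 FPKM and is the 1 partner with non-overlapping lower values. Whether reads were counted by strand is not stated, so where the transcripts of a pair overlap their reads cannot be told apart.

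Motif content was set beside the differences as a description. The 22 members with an ETS motif had a median difference of 0.41 and the 45 without had 0.24. For the CCAAT box the medians were 0.40 with (27 members) and 0.16 without (40 members). For the NRF1 motif they were 0.19 with (8 members) and 0.27 without, and for the YY1 motif 0.18 with (12 members) and 0.29 without. Non-overlapping higher values were seen in 7 of 22 members with an ETS motif and in 15 of 45 without. The counts were 10 of 27 and 12 of 40 for the CCAAT box, and 2 of 8 and 20 of 59 for NRF1. For YY1 they were 3 of 12 and 19 of 55, all against 9.59% of all tested genes. The difference between members with and without a motif was not tested. Of the stretches shown, those before Mrpl3 and Mrps9 carry a CCAAT box, and these genes had differences of 0.65 and 0.81. Mrpl3, Mrps9 and Mrpl55 were shown for their small p, so their large differences follow from that choice and bear on no motif. Mrpl3 is also among the 22 members with an ETS motif, which lies outside its stretch. Mrpl22, with an ETS and an NRF1 motif, had 0.51, and Mrpl43, with the ETS motif at a pair of places, had 0.13. Mrpl55 and Mrpl46 carry none of the 4 motifs and had 0.68 and 0.30, and Mrpl9 carries the NRF1 palindrome and had 0.03.

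**Figure D4:**
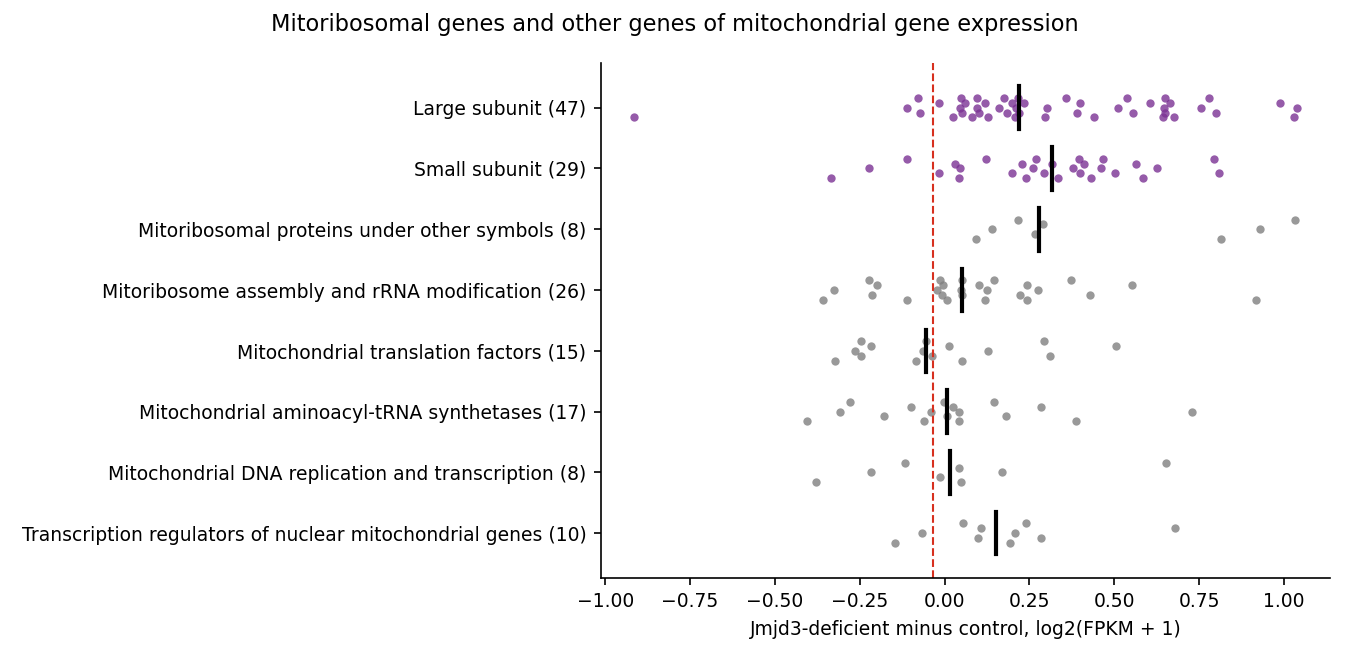
Difference between the groups on the log2(FPKM + 1) scale for each tested gene (points) of the large and small subunit (purple) and of 6 other lists of genes for mitochondrial gene expression (grey), with the number of genes in brackets. Black bars are list medians and the red dashed line is the median of all tested genes (-0.04); the medians of the subunits and of the mitoribosomal proteins under other symbols (0.22 to 0.32) lie to the right of those of assembly factors, translation factors and synthetases (-0.06 to 0.05).

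Other genes of mitochondrial translation were read from lists compiled by function. None of their genes was called at an adjusted p under 0.05. The 8 genes for mitoribosome-associated proteins under other symbols all had higher values, with a median of 0.28, and 3 had non-overlapping groups. The shares over all tested genes are 45.3% and 9.59% for these counts. Those 3, Chchd1, Ict1 and Ptcd1, averaged above 100 FPKM, where 42.6% of tested genes had non-overlapping higher values. Ict1, a peptide-release factor built into the large subunit, was at 170.6, 148.8 and 149.1 against 214.5, 289.4 and 334.8 FPKM (difference 0.81 ± 0.18, adjusted p = 0.125, limma). Ptcd1, an RNA-binding protein of mitochondria that associates with the ribosome, was at 149.6, 122.1 and 94.9 against 205.6, 259.9 and 281.6 FPKM. Neither gene overlapped between groups.

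The genes that build and serve the ribosome had smaller median differences, at lower levels. Their median levels were 10.2 FPKM (assembly), 8.45 FPKM (translation factors) and 4.63 FPKM (synthetases), against 27.9 FPKM for the members. Members at 5 to 10 FPKM had a median difference of 0.12, against -0.06 for all tested genes of that level. At 10 to 20 FPKM these medians were 0.21 and -0.001. The part of level in the smaller differences of these lists was not tested. Among 26 tested genes for assembly and ribosomal RNA modification, 2 (7.69%) were higher at an unadjusted p under 0.05, near the 6.81% of all tested genes, and 0 were lower, with a median of 0.05. Those 2 were Ftsj2, a methyltransferase of mitochondrial ribosomal RNA, at 20.8, 19.3 and 15.2 against 30.9, 41.5 and 34.6 FPKM, and Fastkd2, an RNA-binding protein of mitochondria, at 7.80, 5.96 and 7.60 against 10.1, 9.60 and 13.2 FPKM. Their groups did not overlap (differences 0.92 ± 0.17 and 0.55 ± 0.18). As many genes of this list, Eral1 and Ybey (7.69%), had non-overlapping lower values, under the 11.9% of all tested genes. Eral1, a chaperone of the small-subunit ribosomal RNA, was at 9.31, 7.89 and 6.94 against 6.26, 5.94 and 5.85 FPKM.

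For 15 translation factors and related proteins the median was -0.06, values were lower for 9, and 1 (6.67%) was higher at an unadjusted p under 0.05, near the same background. That gene, Slirp, which binds mitochondrial messenger RNA, was at 75.7, 49.8 and 53.0 against 64.4, 94.7 and 94.9 FPKM and overlapped (difference 0.50 ± 0.21). Gfm1, an elongation factor, was at 34.8, 29.1 and 31.1 against 36.4, 42.8 and 39.2 FPKM and did not overlap (0.31 ± 0.14). Mtrf1 and Lrpprc, 2 of the 15 genes, had non-overlapping lower values, near the 11.9% of all tested genes. Lrpprc, the binding partner of Slirp, was at 11.03 to 14.5 FPKM in the controls against 9.31 to 10.6 FPKM (-0.32 ± 0.16).

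For 17 mitochondrial aminoacyl-tRNA synthetases the median was 0.01, with 1 (5.88%) higher at an unadjusted p under 0.05. That gene, Lars2, was at 2477, 1464 and 1541 against 2435, 2677 and 3907 FPKM and overlapped between groups, and its level stood far above that of the other 16 (means of 1.82 to 18.1 FPKM). Yars2, next by p, was at 3.41, 3.29 and 2.83 against 5.27, 4.59 and 3.63 FPKM. For 8 genes of mitochondrial DNA replication and transcription the median was 0.01. Tefm, an elongation factor of the mitochondrial RNA polymerase, was at 19.0, 22.6 and 22.7 against 30.2, 26.9 and 48.7 FPKM (difference 0.65 ± 0.22). The polymerase itself, Polrmt, was at 3.09, 3.40 and 3.16 against 2.55, 2.89 and 1.46 FPKM (-0.38 ± 0.21), so neither gene overlapped and they differed in opposite directions. Of all tested genes, 9.59% had non-overlapping higher and 11.9% non-overlapping lower values.

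Of 10 tested regulators of nuclear genes for mitochondrial proteins, 1 was higher at an unadjusted p under 0.05, against 6.81% of all tested genes. This was Ppargc1b, a coactivator of mitochondrial gene programmes, at 20.1, 18.0 and 14.7 against 23.0, 33.2 and 30.6 FPKM, with non-overlapping groups (difference 0.68 ± 0.19, adjusted p = 0.174, limma). Gabpb1, the partner subunit of GABPA, was at 16.8, 18.1 and 19.0 against 23.6, 19.1 and 23.9 FPKM (difference 0.28 ± 0.15). Yy1, the factor of the YY1 motif, had non-overlapping lower values, at 52.3, 53.8 and 56.1 against 47.6, 50.1 and 48.6 FPKM (-0.15 ± 0.12). It was 1 of the 10 regulators with such values, against 11.9% of all tested genes.

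Cytosolic ribosomal protein genes and nuclear genes of the respiratory chain were set beside the members. All 74 cytosolic ribosomal protein genes had higher values, 59 (79.7%) had non-overlapping groups, and the median difference was 0.61 at a median level of 515.5 FPKM. Of 82 respiratory chain and ATP synthase genes, 33 (40.2%) had non-overlapping higher values, with a median of 0.32 at 103.3 FPKM. The 76 members, at a median level of 27.9 FPKM, had 28 such genes (36.8%) and a median of 0.28. Over all tested genes the share was 9.59% and the median -0.04. Tested genes at 100 FPKM and above had 42.6% and 0.28, and those at 20 to 50 FPKM had 15.8% and 0.05. No gene of any of these 3 families was called at an adjusted p under 0.05, and the differences between the families were not tested.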

How the data were processed

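RNA of sorted mTECs from 6 mice was analysed, 1 library per mouse. The authors deposited 1 table of FPKM values per library, made with Bowtie2 2.2.5 and Cufflinks on mm10 per the submitters' processing notes; the Cufflinks version, the annotation, strand and scaling are not given in the sources used here. The tables hold no counts, so depth is unknown. Of 25025 rows, 44 whose symbols had become dates were left out, and rows of 1 symbol were summed (6 members have several). Row starts were raised by 1 base, which equals the RefSeq start for 34 of the 76 members. Genes averaging 0.5 FPKM or more entered limma 3.58.1 as log2(FPKM + 1) (R 4.3.3, lmFit and eBayes with trend, 2-sided, Benjamini-Hochberg over 15720 genes), tested on simulated data; the added 1 understates differences of low genes. Each library was taken as another mouse because its label carries its own number, and no number occurs in both groups. Replicate numbers, given in sample order, only name the samples and pair nothing. The members and lists were chosen with earlier results of these data known, so their counts are descriptions. Values by library were given for members with the 6 smallest p and the 3 highest and 3 lowest levels per subunit, for the Mrps18 paralogs and Mrps30, and for the 2 genes with the smallest p in each other mitochondrial list; Mrpl12, Mrpl48, Mrpl52, Mrps10, the start partners and the genes named for non-overlapping lower values were chosen after their values were seen. Alternatives covered pseudocount, filter, normalization, array weights, trend, row choice, subunit placement and leaving out libraries; scaling to equal summed FPKM was added after seeing the sums.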

Additional observations from a re-analysis of the deposited data

How the results depend on the processing

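The medians of both subunits stayed above the median of all tested genes under all 16 alternatives to the fit, but their sign did not always hold. Scaling to equal summed FPKM gave medians of -0.054 (large) and 0.018 (small), and 233 calls over all tested genes, against 12 as deposited. Array weights called 3025 genes, 16 large-subunit and 11 small-subunit genes among them. These weights ran from 0.26 for cKO_265 to 8.72 for Con_261, so that fit leans on 1 control. Leaving out 1 library gave 2 to 23 calls over all genes (2 without any 1 control, 23 without cKO_262, 19 without cKO_265) and 0 among the members. The small-subunit genes with non-overlapping higher values numbered 14 without Con_253 and 14 without cKO_265, against 9 with all libraries, and the share of all tested genes was then 13.8% and 15.5%. Without both libraries they numbered 19, and those of the large subunit 29 against 19, with a share of 21.9%. At an unadjusted p under 0.05, array weights gave 23 large-subunit and 16 small-subunit genes higher, against 15 and 8, with 15.9% of all tested genes. As shares of the summed FPKM, the ratios of the sums were 1.24 (large) and 1.14 (small).

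Of 380 values of the 24 named members under alternatives, 18 changed sign, all in genes near 0. Mrpl17 was at 0.014 with quantile normalization, 0.0020 with median centring and -0.24 to 0.036 with 1 library left out. Mrpl35 was at 0.10, 0.066 and 0.084 with quantile normalization, median centring and array weights, and at -0.088 to 0.065 with 1 library left out. Mrps18c was at 0.027 and 0.065 with quantile normalization and median centring, and at -0.17 to 0.23 with 1 library left out. Under equal summed FPKM, Mrpl41 was at -0.13 and Mrps22 at -0.19, and leaving out 1 library gave -0.0052 to 0.32 and -0.032 to 0.15. Mrps22 was at -0.013 without both Con_253 and cKO_265. The numbers of reads are unknown, so what depth limits cannot be given, and 3 mice per group limit the precision.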
